A study of Mus musculus with 23 samples.

Results

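The genes described here are Trp53, the mouse gene for the transcription factor p53, and 9 genes that p53 is known to switch on after DNA damage, Cdkn1a, Mdm2, Ccng1, Bax, Bbc3, Phlda3, Trp53inp1, Zmat3 and Sesn2. They were chosen by name as p53 genes, found by symbol among the 47729 Ensembl identifiers of the count table, and all 10 passed the filter on low counts that left 19597 genes for testing. RNA was sequenced from dendritic cells (DCs) sorted from the spleens of wild type BALB/c mice, either Untreated or treated with TLI. TLI is commonly short for total lymphoid irradiation, but the labels give only the abbreviation, with neither dose nor time. Each pool of mice was sorted into 4 subsets by surface staining, namely DC1a (CD8hi CD172-), DC1b (CD8Int CD172+), DC2 (CD8lo CD172hi) and DC3 (CD8- CD172lo). There were 8 libraries from 2 Untreated pools and 15 libraries from 4 TLI pools, and a DC2 library of TLI pool 2 was not analysed here. By the labels, the Untreated pools and TLI pools 1 and 2 belonged to batch 1, and TLI pools 3 and 4 to batch 2, so the 7 and 8 TLI libraries of the batches are kept apart below and no Untreated library shares batch 2.

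The p53 protein is held at a low level in unstressed cells by Mdm2, a ubiquitin ligase that marks it for degradation and that is itself a p53 target. Breaks in DNA activate kinases such as Atm that free p53 from this control, and p53 then binds response elements near genes that stop the cell cycle, start apoptosis or limit oxidative damage. This control acts mostly on the protein, so the mRNA level of Trp53 does not by itself report p53 activity, whereas the mRNA levels of its targets are the usual readout. Spleen cells of the lymphoid lineage are among the more radiation-sensitive cells of the body, while DCs are replaced continuously from precursors in the bone marrow.

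Total counts ran from 19256447 to 36997890 per library, and 3 counts, taken as the limit of detection, corresponded to at most 0.156 CPM. CPM is the count of a gene per 1000000 counts of its library and is used below as the level of a gene. The defining DC genes Cd74, H2-Ab1, Itgax, Flt3 and Zbtb46 were above 0 in every library, with a summed level of 7764 to 82842 CPM that was lower in TLI batch 2, as given below. Cd74 and H2-Ab1 made up most of this sum, as Itgax, Flt3 and Zbtb46 reached at most 532, 276 and 139 CPM. Zbtb46 was higher in all TLI than in Untreated libraries in DC1a (40.0 to 124 against 27.7 to 33.9 CPM), DC1b (17.6 to 61.8 against 5.72 to 11.7) and DC3 (63.5 to 139 against 29.9 to 53.7). In DC2 it was 8.56 to 35.1 CPM after TLI against 6.84 to 90.0 CPM. Markers of other cells moved with treatment and batch. The 5 erythroid genes Hba-a1, Hba-a2, Hbb-bs, Hbb-bt and Alas2 summed to 56.1 to 2276 CPM in Untreated libraries, 19252 to 132790 CPM in TLI libraries of batch 1 and 143 to 7126 CPM in those of batch 2. The 6 neutrophil genes summed to 1308 to 20497 CPM in TLI DC1b libraries against 1.16 to 19.8 CPM in Untreated DC1b libraries, and the 4 plasmacytoid DC genes to 48.9 to 135 CPM against 2685 to 2947 CPM. In DC2 the neutrophil genes summed to 110 to 2296 CPM after TLI against 1.63 to 2.23 CPM, and the 8 monocyte and macrophage genes to 506 to 1366 CPM against 228 to 457 CPM. The neutrophil genes did not move alike in TLI DC2 libraries. S100a8 (64.7 to 762 CPM) and S100a9 (45.0 to 672 CPM) were high in all of them. Camp (0 to 357 CPM), Ngp (0 to 491 CPM) and Ly6g (0 to 13.1 CPM) were not, and Ltf was 0 to 0.103 CPM against 0.0814 to 1.87 CPM in Untreated DC2. The 5 NK cell genes summed to 2735 and 811 CPM in the TLI DC3 libraries of pools 1 and 2 and to 106 and 122 CPM in those of pools 3 and 4, against 229 CPM in both Untreated DC3 libraries. The 5 T cell genes summed to 57.6 to 241 CPM in TLI libraries of batch 1 and to at most 36.8 CPM in any other library. In such bulk libraries fewer cells of a type and less RNA per cell cannot be told apart, and the part these cells have in the values below was not tested.

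In the Untreated mice the 10 genes differed widely in level when CPM was divided by the exonic length of each gene in kilobases. Bax, which encodes a pore-forming protein of the mitochondrial death pathway, was highest with a mean of 69.6 CPM per kilobase over 8 libraries. Cdkn1a (14.6), Trp53 (11.0), Ccng1 (9.35), Mdm2 (8.81) and Trp53inp1 (6.33) followed on the same scale, and Sesn2 (4.15) and Phlda3 (2.66) were lower. Bbc3 and Zmat3 were lowest, at 0.610 and 0.573 CPM per kilobase. Most of these genes were therefore expressed in DCs without treatment, and only Phlda3 (7 libraries), Bbc3 (3), Sesn2 (1) and Zmat3 (1) had libraries with 3 counts or fewer among the 23. No member passed the test for a difference among the 4 Untreated subsets (0 of 10, edgeR quasi-likelihood test, lowest adjusted p = 0.284 for Phlda3, 1 member at an unadjusted p under 0.05), where 2.37% of the genes tested passed. The unadjusted p was under 0.05 for 2796 of the 19597 genes.

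Trp53 (chr11:69580359-69591873, GRCm38, plus strand) had similar levels in the Untreated subsets, 34.6 and 42.6 CPM in DC1a, 31.5 and 73.8 in DC1b, 63.0 and 38.7 in DC2 and 37.9 and 32.9 in DC3, in the order of pools 1 and 2. After TLI, the DC1a libraries of pools 1 to 4 held 76.7, 115, 18.0 and 24.3 CPM, and those of DC1b 21.8, 65.3, 16.9 and 13.9 CPM. TLI DC2 libraries held 46.9, 40.0 and 44.4 CPM in pools 1, 3 and 4, and TLI DC3 libraries 36.9, 109.6, 35.5 and 36.2 CPM. The TLI groups overlapped the Untreated range in all 4 subsets, and in DC1a the libraries of batch 1 lay above it and those of batch 2 below it. Of the 7 TLI libraries of batch 1, 3 lay above both Untreated libraries of their subset and 1 below, whereas of the 8 of batch 2 none lay above and 4 lay below. The share of all genes with such placements was not computed. The fitted log2 fold change of Trp53, TLI over Untreated in the edgeR fit of all libraries with a term for batch, was 1.03 ± 0.56 (SE) in DC1a, -0.08 ± 0.54 in DC1b, 0.75 ± 0.62 in DC2 and 1.33 ± 0.58 in DC3, with adjusted p between 0.45 and 0.99. Since no Untreated library belongs to batch 2, this fit sets the TLI effect mainly by the pools of batch 1, and with TLI pools 3 and 4 alone the value was -0.77 in DC1a and 0.17 in DC3.

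**Figure D1:**
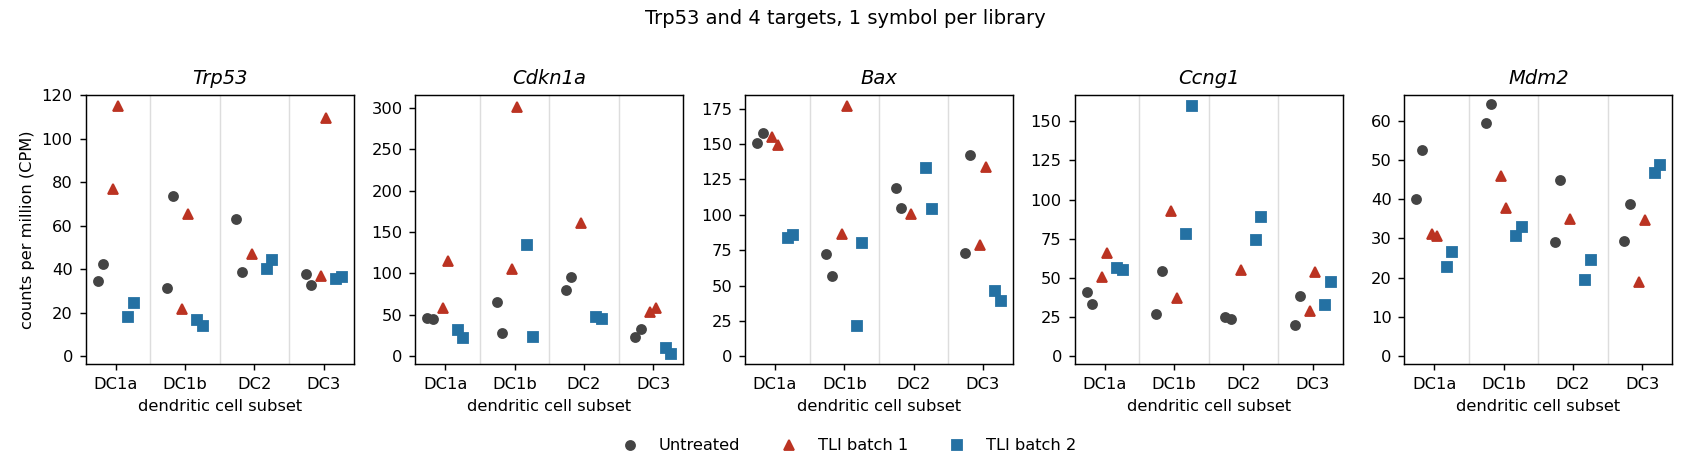
Levels of Trp53 and 4 of its targets in CPM (vertical axis, linear, a separate scale for each gene) in the 4 DC subsets (horizontal axis), with 1 symbol for each of the 23 libraries, coloured by treatment and batch. Cdkn1a in the TLI libraries of batch 1 sits above both Untreated libraries in every subset and in 7 of 8 libraries of batch 2 below both, while Ccng1 after TLI is never below both Untreated libraries.

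Cdkn1a encodes p21, the cyclin-dependent kinase inhibitor that stops the cell cycle and is the best known p53 target. It lies at chr17:29090976-29100727 (GRCm38, plus strand), and a short gene model on the other strand overlaps its exons, whose reads could not be told apart by a kit that does not mark strand. Untreated libraries of pools 1 and 2 held 45.8 and 45.0 CPM in DC1a, 65.6 and 27.5 in DC1b, 79.5 and 95.1 in DC2 and 22.6 and 32.6 in DC3. TLI libraries held 58.0, 115, 31.2 and 22.5 CPM in DC1a and 106, 300.4, 134 and 22.9 CPM in DC1b, for pools 1 to 4. Those of DC2 held 160.4, 47.9 and 44.5 CPM in pools 1, 3 and 4, and those of DC3 53.2, 58.3, 10.1 and 3.22 CPM. All 7 TLI libraries of batch 1 thus lay above both Untreated libraries of their subset, a placement found for 1.12% of the genes tested, and 7 of the 8 libraries of batch 2 lay below both. The share of all genes with that batch 2 placement was not computed, and 17.4% of the genes tested differed between the TLI batches. The exception was the DC1b library of pool 3.

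The largest fitted difference of Cdkn1a was in DC1b, where the ratio of mean levels was 3.02 (TLI 141 CPM, n = 4, over Untreated 46.6 CPM, n = 2) and the log2 fold change was 2.77 ± 0.76 (SE, 95% interval 1.16 to 4.37). Its p of 0.00203 became an adjusted p of 0.136 over all genes tested with edgeR's quasi-likelihood test, which is not past the threshold of 0.05. It passed with limma voom (adjusted p = 0.0485), with DESeq2 (adjusted p = 0.00200) and when only genes with 10 counts in every library were tested (adjusted p = 0.0474), so whether Cdkn1a is called in DC1b depends on the test. The direction in DC1b was the same in all 17 alternatives, from 1.09 to 3.47 on the log2 scale, with adjusted p from 0.0020 to 0.58. In the other subsets the fitted log2 fold changes were 1.18 ± 0.70 in DC1a, 1.01 ± 0.74 in DC2 and 0.71 ± 0.67 in DC3, with adjusted p of 0.591, 0.715 and 0.728. With TLI pools 3 and 4 alone these 3 values were -0.66, -0.82 and -1.94, so the direction in DC1a, DC2 and DC3 depended on the batch of the TLI mice.

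The letters to which p53 could bind were looked up in the RefSeq promoter windows (GRCm38.p6, 250 bases before to 50 after a transcription start). Whether these letters have a part in the levels described here was not tested. The search used the p53 decamer, the 10-base unit of the response element that reads alike on both strands, with no mismatch allowed. It was found in 5 of the 11 windows of the 8 members that have any, while 8.36% of all 32851 windows hold it. The 5 windows belong to 5 members. A pair of decamers no more than 13 bases apart was present in 24 windows (0.0731%), among them a window of Cdkn1a (chr17:29090729-29091028). There the pair is 12 bases apart and begins 73 bases before the start of that window's transcript. The 10 bases right after its second decamer depart from the decamer pattern only in their first letter, and the exact search did not mark them. The other Cdkn1a window (chr17:29093519-29093818) holds 0 decamers. The stretches of 60 bases around the matches, 5′ to 3′ on the strand of each gene and with the decamers in capitals, are shown because they are the members with an exact match:
Cdkn1a, chr17:29090892-29090951, plus strand: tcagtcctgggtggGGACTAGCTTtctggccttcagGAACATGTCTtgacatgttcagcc
Trp53, chr11:69580259-69580318, plus strand: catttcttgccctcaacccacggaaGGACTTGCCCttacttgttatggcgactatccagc
Bax, chr7:45467065-45467124, minus strand: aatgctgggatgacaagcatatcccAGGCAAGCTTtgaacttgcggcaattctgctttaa
Ccng1, chr11:40755437-40755496, minus strand: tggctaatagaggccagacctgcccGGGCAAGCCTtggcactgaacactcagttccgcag
Mdm2, chr10:117710910-117710969, minus strand: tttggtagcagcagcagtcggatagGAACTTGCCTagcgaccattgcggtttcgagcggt
The windows of Bbc3, Phlda3 and Sesn2 hold no exact decamer, which says only that these letters are not in these windows. Trp53inp1 and Zmat3 are named only.

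Mdm2 and Ccng1 (cyclin G1, which works with a phosphatase on Mdm2) form the feedback arm of the pathway. Ccng1 (chr11:40748552-40755311, minus strand) had Untreated levels of 40.8 and 33.5 CPM in DC1a, 27.1 and 54.5 in DC1b, 24.7 and 23.5 in DC2 and 19.9 and 38.5 in DC3. After TLI it stood at 50.7, 65.6, 56.2 and 55.0 CPM in DC1a and at 93.0, 37.4, 78.1 and 159.7 CPM in DC1b, for pools 1 to 4. In DC2 it stood at 54.8, 74.4 and 89.0 CPM, and in DC3 at 29.1, 54.0, 32.9 and 47.5 CPM. The TLI and Untreated groups did not overlap in DC1a and DC2, and 12 of the 15 TLI libraries lay above both Untreated libraries of their subset with none below both. A placement of at least 12 libraries above was found for 1.04% of the genes tested. Both batches contributed, with 5 of 7 and 7 of 8 libraries above. The mean level after TLI was 3.02 times that of Untreated mice in DC2 and 2.26 times in DC1b. The fitted log2 fold changes were 0.56 ± 0.49 in DC1a, 1.29 ± 0.52 in DC1b, 1.36 ± 0.55 in DC2 and 0.46 ± 0.49 in DC3, with edgeR's adjusted p of 0.734, 0.326, 0.473 and 0.767. No alternative gave Ccng1 an adjusted p under 0.05 (lowest 0.0902 over 67 fits), and none turned its direction. It was the only one of the 6 members followed through all alternatives whose direction never turned.

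Mdm2 (chr10:117688875-117710758, minus strand) had Untreated levels of 40.2 and 52.5 CPM in DC1a, 59.5 and 64.2 in DC1b, 29.1 and 44.8 in DC2 and 29.3 and 38.8 in DC3. TLI libraries held 31.1, 30.6, 22.8 and 26.5 CPM in DC1a and 45.8, 37.7, 30.7 and 32.8 CPM in DC1b. They held 35.0, 19.5 and 24.6 CPM in DC2, and 18.8, 34.7, 46.6 and 48.7 CPM in DC3. All TLI values were below both Untreated values in DC1a and DC1b, the groups overlapped in DC2 and DC3, and 11 of the 15 TLI libraries were below both against 2 above, these being the DC3 libraries of batch 2. At least 12 libraries lay below both for 4.58% of the genes tested, and the share for 11 was not computed. The fitted log2 fold changes were small, at -0.59 ± 0.40, -0.40 ± 0.40, -0.42 ± 0.43 and 0.31 ± 0.42 in the order DC1a, DC1b, DC2 and DC3, and none passed (adjusted p between 0.630 and 0.827). The 95% intervals in DC1a and DC1b, -1.43 to 0.24 and -1.23 to 0.43, leave increases above 0.24 and 0.43 on the log2 scale outside.

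Bax and Bbc3 (Puma), a BH3 protein that sets Bax free, belong to the apoptosis arm. Bax (chr7:45461697-45466898, minus strand) shares exonic bases on the same strand with the protein-coding gene model Gm45808, so its counts are uncertain to that extent. Untreated libraries held 151 and 158 CPM in DC1a, 72.1 and 56.8 in DC1b, 119 and 105 in DC2 and 73.2 and 142 in DC3. After TLI, Bax stood at 155, 149, 83.4 and 86.0 CPM in DC1a and 86.7, 177, 21.2 and 79.8 CPM in DC1b. In DC2 it stood at 101, 133 and 104 CPM, and in DC3 at 78.5, 134, 46.1 and 38.9 CPM. In DC1a, DC1b and DC3 the lowest library was one of batch 2, and no subset showed groups that did not overlap. The fitted log2 fold changes ran from -0.08 ± 0.49 in DC3 to 1.13 ± 0.51 in DC1b, with adjusted p between 0.385 and 0.993.

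Bbc3 (chr7:16308393-16318205, plus strand) was nearly silent, with 1.25 and 1.54 CPM in Untreated DC1a, 1.93 and 0.320 in DC1b, 1.18 and 1.09 in DC2 and 3.05 and 0 in DC3. TLI values were 0.563, 0, 1.65 and 0.951 CPM in DC1a and 0.477, 4.77, 9.83 and 3.42 CPM in DC1b. They were 1.45, 4.22 and 7.45 CPM in DC2, all above the Untreated libraries, and 0, 0.591, 0.246 and 1.57 CPM in DC3. Bbc3 therefore had its highest levels after TLI in DC1b and DC2 and stayed within or below the Untreated spread in DC3. None of the 4 fitted differences passed (adjusted p between 0.657 and 1).

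**Figure D2:**
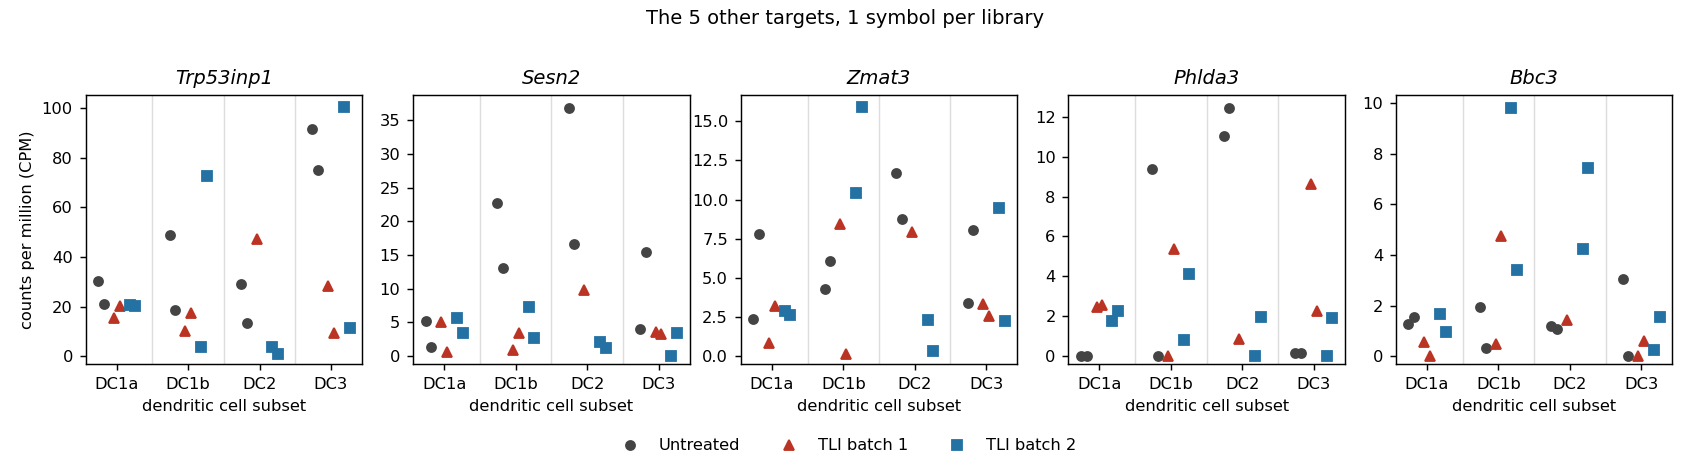
Levels in CPM of the 5 members with lower or more scattered values, Trp53inp1, Sesn2, Zmat3, Phlda3 and Bbc3, by DC subset, with 1 symbol for each of the 23 libraries and a separate linear scale for each gene. Sesn2 after TLI lies below both Untreated libraries in DC1b, DC2 and DC3, and Phlda3 is at 0 in both Untreated DC1a libraries but at 11.0 and 12.5 CPM in Untreated DC2.

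Phlda3 (chr1:135766119-135769136, plus strand), which competes with Akt for membrane lipids and so dampens survival signals, had its TLI and Untreated libraries in opposite orders in DC1a and DC2. It had 0 counts in both Untreated DC1a libraries, which allows up to 0.116 CPM in the shallower one, and stood at 2.46, 2.57, 1.78 and 2.25 CPM in the TLI DC1a libraries. The mean after TLI in DC1a was 2.27 ± 0.35 CPM (SD, n = 4), at least 19.6-fold higher than the limit of 3 counts in a library. In DC2 the order was the opposite, with 11.0 and 12.5 CPM in Untreated libraries and 0.851, 0 and 1.97 CPM after TLI, a ratio of mean levels of 12.5 in favour of Untreated mice. DC1b libraries were scattered, at 9.37 and 0 CPM in Untreated mice and 0, 5.39, 0.831 and 4.14 CPM after TLI. Untreated DC3 libraries held 0.137 and 0.157 CPM, that is 3 and 4 counts, against 8.62, 2.29, 0 and 1.91 CPM after TLI. The groups did not overlap in DC1a and DC2, yet no subset passed with edgeR (adjusted p between 0.449 and 1). The edgeR test for a difference of the TLI effect among subsets gave an adjusted p of 0.614 for Phlda3, the lowest of the members. With DESeq2 the DC1a difference passed (adjusted p = 0.0211).

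Trp53inp1 (chr4:11156431-11174379, plus strand), a stress protein that supports p53 phosphorylation and autophagy, was highest in Untreated DC3 at 91.4 and 75.2 CPM, with 30.4 and 20.8 CPM in DC1a, 48.9 and 18.5 in DC1b and 29.3 and 13.3 in DC2. TLI libraries held 15.2, 20.3, 20.6 and 20.3 CPM in DC1a and 10.2, 17.5, 3.52 and 72.7 CPM in DC1b. Those of DC2 held 47.4, 3.80 and 0.827 CPM, and those of DC3 28.4, 9.34, 100.2 and 11.4 CPM. Thus 12 of the 15 TLI libraries lay below both Untreated libraries of their subset, with the groups apart in DC1a, and 3 single libraries lay above both. A placement of at least 12 libraries below was found for 4.58% of the genes tested. Adjusted p was between 0.792 and 1 in the 4 subsets.

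Sesn2 (chr4:132492032-132510501, minus strand), a sestrin that restrains mTORC1 under stress, was below both Untreated libraries in 12 of the 15 TLI libraries as well. Untreated libraries held 5.26 and 1.39 CPM in DC1a, 22.7 and 13.1 in DC1b, 36.9 and 16.6 in DC2 and 3.96 and 15.4 in DC3. TLI libraries held 5.13, 0.625, 5.70 and 3.48 CPM in DC1a and 0.953, 3.48, 7.23 and 2.74 CPM in DC1b. Those of DC2 held 9.82, 2.14 and 1.17 CPM, and those of DC3 3.55, 3.25, 0 and 3.50 CPM. The groups did not overlap in DC1b, DC2 and DC3, where the mean of Untreated mice was 4.97, 6.11 and 3.76 times that after TLI, and they overlapped in DC1a. The fitted log2 fold changes in these 3 subsets were -1.81 ± 1.496, -2.54 ± 1.48 and -1.66 ± 1.38, and the adjusted p values were 0.665, 0.623 and 0.685.

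Zmat3 (chr3:32334792-32366014, minus strand), an RNA-binding zinc finger protein that p53 induces, stayed under 16 CPM throughout. Untreated libraries held 2.37 and 7.79 CPM in DC1a, 4.28 and 6.08 in DC1b, 11.7 and 8.78 in DC2 and 3.37 and 8.03 in DC3. TLI libraries held 0.844, 3.20, 2.87 and 2.63 CPM in DC1a and 8.45, 0.110, 10.4 and 15.9 CPM in DC1b. Those of DC2 held 7.95, 2.29 and 0.310 CPM, all below the Untreated values, and those of DC3 3.32, 2.58, 9.45 and 2.28 CPM. The differences pointed different ways in different subsets, and none passed (adjusted p between 0.759 and 0.944).

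Over the 10 members, none passed the threshold for TLI against Untreated mice in DC1a, DC1b, DC2 or DC3, where 0.0102%, 0.413%, 0.0612% and 0.0255% of the 19597 genes tested passed. The members with an unadjusted p under 0.05 numbered 1, 3, 1 and 1, against 1912, 2425, 1765 and 2044 of all genes tested. DESeq2 called 1 member in DC1a (Phlda3), 1 in DC1b (Cdkn1a) and none in DC2 or DC3, and limma voom called 1 in DC1b (Cdkn1a) and none elsewhere. Both of these tests also called more of all genes than edgeR did in every subset, with the numbers given in the last section. The fitted difference was above 0 for 6 of 10 members in DC1a and for 5 of 10 in each of the other subsets, with medians on the log2 scale of 0.30, 0.38, 0.09 and 0.12 beside 0.15, 0.09, 0.02 and -0.05 over all genes tested. CPM ranges of TLI and Untreated libraries did not overlap for 4 members in DC1a, 2 in DC1b, 5 in DC2 and 1 in DC3, against 13.6%, 20.9%, 25.2% and 14.5% of all genes tested. The members apart in DC1a were Ccng1 and Phlda3 (TLI above) and Mdm2 and Trp53inp1 (TLI below), and those in DC2 were Ccng1 and Bbc3 (above) and Phlda3, Zmat3 and Sesn2 (below). Members above and members below the Untreated range were thus found together in DC1a and in DC2.

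**Figure D3:**
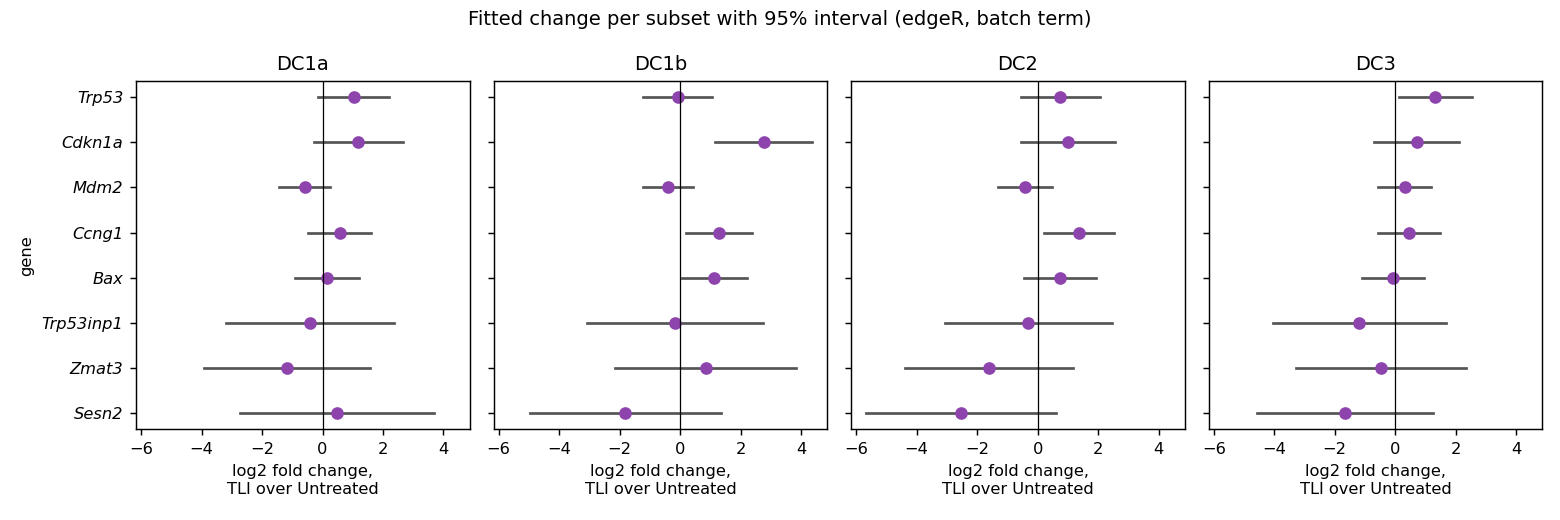
Fitted log2 fold change, TLI over Untreated, of 8 members in the 4 DC subsets (horizontal axis, points) with 95% intervals (lines), from the edgeR fit of 23 libraries with a batch term; Phlda3 and Bbc3, which have many libraries near 0, are left out. Cdkn1a in DC1b, at 2.77, has the largest value, and the intervals of Trp53inp1, Zmat3 and Sesn2 are wider than those of the other genes.

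Averaged over the 4 subsets with limma voom, in which the pool of mice was a random block, 0 of 10 members passed, against 4.6% of the genes tested. The correlation estimated for libraries of a pool was only 0.00267. The block therefore had almost no effect, and libraries of the same mice counted nearly as separate, although only 2 Untreated and 4 TLI pools stood behind this average. Cdkn1a came nearest, with a log2 fold change of 1.30 ± 0.40 (SE) and an adjusted p of 0.0744, followed by Ccng1 at 0.83 ± 0.33 and an adjusted p of 0.158. Cdkn1a passed when TLI pool 1 (adjusted p = 0.0358) or TLI pool 3 (adjusted p = 0.0413) was left out, and when no filter on low counts was used (log2 fold change 1.44, adjusted p = 0.0363). Trp53 passed without TLI pool 1 (1.35, adjusted p = 0.0106), against 0.67 ± 0.33 and an adjusted p of 0.257 with all pools. The unadjusted p was under 0.05 for 2 members and for 4038 of all genes tested. The test for a difference of the TLI effect among subsets found 0 of 10 members (edgeR, lowest adjusted p = 0.614, 1 member at an unadjusted p under 0.05), against 0.0357% of the genes tested. Of all genes tested, 1532 had an unadjusted p under 0.05 in it.

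Between the batches of TLI mice 3 of the 10 members passed, Trp53, Cdkn1a and Bax, all lower in batch 2, where 17.4% of all genes tested passed. The median log2 difference, batch 2 over batch 1, was -0.16 over the members and -0.23 over all genes. Among the 7 TLI libraries of batch 1, Trp53 had a mean of 67.5 ± 35.5 CPM (SD) and among the 8 of batch 2 a mean of 28.6 ± 11.8 CPM, beside 44.4 ± 15.5 CPM in the 8 Untreated libraries. For Cdkn1a the same 3 means were 122 ± 88.1, 39.6 ± 41.2 and 51.7 ± 26.0 CPM, and for Bax they were 126 ± 37.6, 74.1 ± 36.8 and 109.6 ± 39.2 CPM. The Untreated mean thus lay between the means of the TLI batches for all 3 genes. The summed level of the 5 defining DC genes, mostly that of Cd74 and H2-Ab1, was also lower in batch 2. Its median was 15907 CPM (7764 to 23885) against 42029 CPM (18955 to 82842) in TLI batch 1 and 33445 CPM (21656 to 49981) in Untreated libraries. Zbtb46, which belongs to the 5, was not lower after TLI in DC1a, DC1b or DC3. The part of the summed level in the differences of the 3 genes was not tested. Trp53 fell by 1.30 ± 0.33 on the log2 scale from batch 1 to batch 2 (edgeR, adjusted p = 0.0118), Cdkn1a by 1.96 ± 0.40 (adjusted p = 0.00277) and Bax by 0.92 ± 0.30 (adjusted p = 0.0412). The 7 others did not pass, including Ccng1 (0.34 ± 0.29) and Mdm2 (-0.08 ± 0.23).

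The call for Cdkn1a held when any TLI pool was left out (adjusted p from 0.00305 to 0.0448). Trp53 lost it without TLI pool 2, 3 or 4 (adjusted p = 0.219, 0.103 and 0.109), and Bax lost it without pool 2, 3 or 4 too (adjusted p = 0.263, 0.126 and 0.130). Without the erythroid genes in the table the 3 log2 differences were -1.30, -1.96 and -0.92 and all passed. This took out only the erythroid genes themselves and left any reads of Trp53, Cdkn1a and Bax from such cells in place. The part of erythroid cells in the 3 differences was thus not tested. No pool of mice was run in both batches, so batch and pool of mice cannot be told apart. The edgeR fit counted the 7 and 8 TLI libraries as separate, although only pools 1 and 2 stood against pools 3 and 4.

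**Figure D4:**
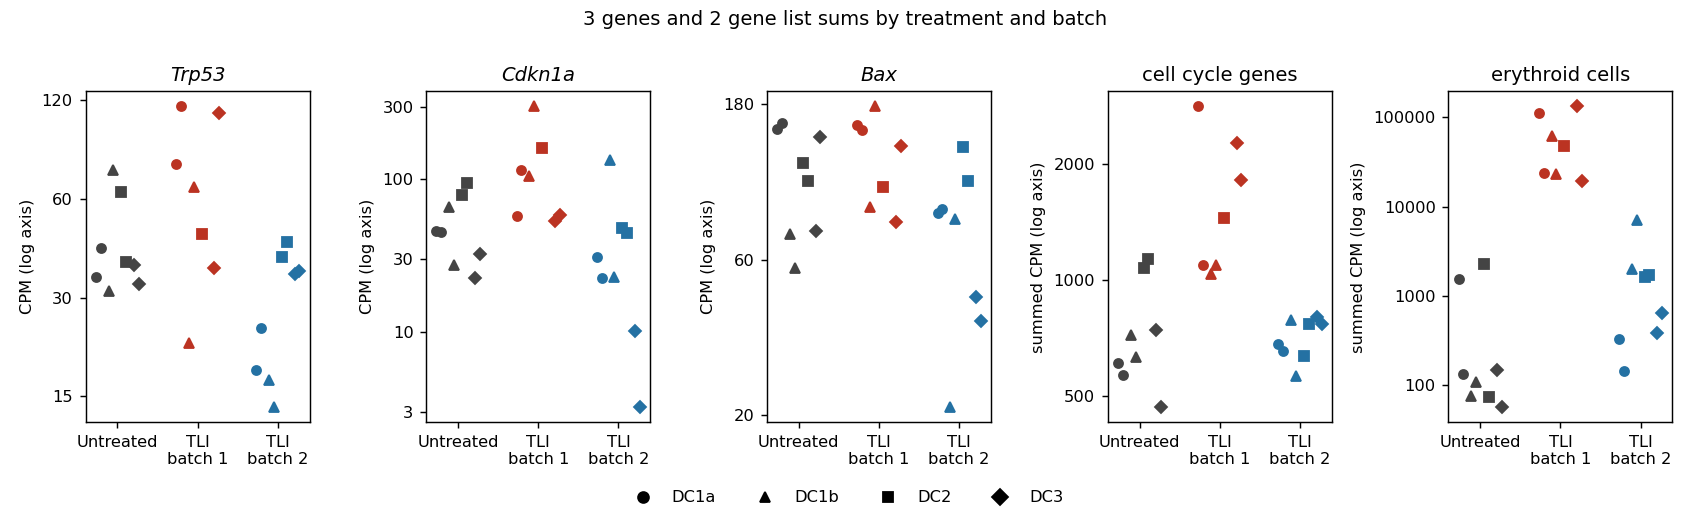
Levels of Trp53, Cdkn1a and Bax (CPM, log axis) and the summed levels of 20 cell cycle genes and 5 erythroid genes (log axis) in the 8 Untreated, 7 TLI batch 1 and 8 TLI batch 2 libraries, with symbols for the 4 DC subsets. The erythroid sums of TLI batch 1 (19252 to 132790 CPM) lie above all others, and the cell cycle sums of TLI batch 2 (563 to 803 CPM) lie below all those of TLI batch 1 (1037 to 2818 CPM). The cell cycle sums of TLI batch 2 lie within the range of Untreated libraries (468 to 1133 CPM).

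Other genes of the pathway were taken from 3 lists. Of 35 further p53 targets, 33 were tested and none passed for TLI in any subset (edgeR). The number at an unadjusted p under 0.05 was 3 in DC1a, 4 in DC1b, 5 in DC2 and 3 in DC3. Over all 19597 genes tested it was 1912, 2425, 1765 and 2044 in that order. DESeq2 called 2, 2, 2 and 0 of these targets and limma voom 0, 0, 1 and 0, beside the numbers over all genes in the last section. The median log2 fold changes of the targets were 0.42, 0.79, -0.23 and 0.24 in DC1a, DC1b, DC2 and DC3. Averaged over subsets 1 of the 33 passed, against 4.6% of all genes tested. It was Gdf15, a secreted stress cytokine, which had no count in any Untreated or TLI batch 2 library and was seen in 3 TLI libraries of batch 1, the DC1b libraries of pools 1 and 2 (4.64 and 3.45 CPM) and the DC2 library of pool 1 (62.2 CPM). Btg2, an antiproliferative gene and early p53 target, was the only further target that differed among Untreated subsets (adjusted p = 0.0231).

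Between the batches of TLI mice 8 of these 33 targets passed, 7 lower and 1 higher in batch 2, where 17.4% of all genes tested passed, with a list median of -0.40 beside -0.23 over all genes. Btg2 ranged from 479 to 1094 CPM in batch 1 and from 166 to 339 CPM in batch 2, with 311 to 1723 CPM in Untreated libraries. It fell by 1.78 ± 0.20 on the log2 scale (adjusted p = 1.8e-05). Plk3, a stress kinase, ranged from 20.1 to 162 CPM in batch 1 and from 0 to 24.9 CPM in batch 2 (adjusted p = 0.00469), and Ddb2, a damage sensor of nucleotide excision repair, from 1.40 to 25.0 CPM and from 0 to 14.5 CPM (adjusted p = 0.0182). Gdf15, with the libraries given above, passed too (adjusted p = 0.0186).

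Among 14 regulators of p53, 12 were tested and none passed in a subset with edgeR, with medians of -0.56, -0.58, -0.37 and -0.80 on the log2 scale in DC1a, DC1b, DC2 and DC3. Those with an unadjusted p under 0.05 numbered 3, 1, 4 and 3, against 1912, 2425, 1765 and 2044 of all genes tested. DESeq2 called 1, 0, 1 and 1 of the regulators and limma voom 0, 1, 1 and 0, beside the numbers over all genes in the last section. Averaged over subsets 2 of the 12 passed, both lower after TLI, against 4.6% of all genes tested. Atr, a kinase that senses stalled replication, had 4.23 to 20.7 CPM in TLI batch 1, 26.9 to 65.0 CPM in TLI batch 2 and 12.5 to 103 CPM in Untreated libraries (limma, adjusted p = 0.0376). Between batches 2 of the 12 passed, against 17.4% of all genes tested. They were Atr (1.94 ± 0.40 higher in batch 2, edgeR adjusted p = 0.00299) and the acetyltransferase gene Ep300 (1.21 ± 0.28 higher, edgeR adjusted p = 0.00699). Kat5, the gene of the Tip60 acetyltransferase, was the other regulator that passed averaged over subsets (limma, -3.49 ± 0.88, adjusted p = 0.0332), and it did not pass between batches. It had 10.1 to 40.6 CPM in Untreated libraries, 0.170 to 35.7 CPM in TLI batch 1 and 0 to 14.2 CPM in TLI batch 2. Exons of Atr, Ep300 and Kat5 overlap other gene models, as do those of Plk3 and Ddb2 above and of Plk1, Cdc20 and Ccna2 below, so the counts of these genes are uncertain.

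The cell cycle genes, which p21 is known to hold down, were all tested (20 of 20). None passed in a single subset with edgeR, although 6, 5, 3 and 8 had an unadjusted p under 0.05 in DC1a, DC1b, DC2 and DC3, and 19, 19, 15 and 20 were above 0. Over all genes tested an unadjusted p under 0.05 was found for 1912, 2425, 1765 and 2044. DESeq2 called 4, 4, 1 and 4 of the cell cycle genes and limma voom 0, 1, 0 and 0, beside the numbers over all genes in the last section. The median log2 fold changes of the 20 genes were 2.98, 1.47, 0.87 and 2.53. Their summed level had a median of 676 CPM in Untreated libraries, 1444 CPM in TLI batch 1 and 725 CPM in TLI batch 2. In DC2 the TLI libraries of batch 2 (636 and 769 CPM) lay below both Untreated libraries (1074 and 1133 CPM). The fitted rise was thus seen mainly in batch 1, by which the fit mainly sets the TLI effect. Averaged over subsets 7 of the 20 rose with limma voom, against 4.6% of all genes tested, of which 434 were higher and 468 lower. Among the 7 were Plk1 and Cdc20, which drive mitosis, and the cyclin genes Ccnb2 and Ccna2. In that order they had log2 fold changes of 5.16 ± 1.35, 4.76 ± 0.94, 3.63 ± 0.79 and 2.58 ± 0.61 and adjusted p of 0.0395, 0.00963, 0.0167 and 0.0235. Ccnb2 had 56.4 to 288 CPM in TLI batch 1, 12.3 to 76.3 CPM in TLI batch 2 and 0 to 63.2 CPM in Untreated libraries. Between batches 5 of the 20 passed, all lower in batch 2, against 17.4% of all genes tested. These were Aurka, Cdk1, Rrm2 and Mcm6, with adjusted p of 0.00881, 0.0396, 0.00509 and 0.0151, and the replication clamp gene Pcna. In the TLI libraries of batch 1, Cdkn1a was thus high together with the cell cycle genes and the erythroid genes, and whether these transcripts came from the same cells was not tested.

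For each member the gene with the most similar profile over all 23 libraries was sought among 10159 other genes with a mean of at least 5 CPM, by Pearson's r of log2 CPM. The most alike were Myl12b for Bax (r = 0.898), Spic for Cdkn1a (0.861), Gm6430 for Trp53 (0.846), Srgap3 for Trp53inp1 (0.825) and Rfesd for Sesn2 (0.806). Spic encodes a transcription factor of red pulp macrophages. The remaining members had Dynlt3 for Ccng1 (0.787), Rbm15 for Bbc3 (0.769), Smc4 for Phlda3 (0.753), Sept2 for Zmat3 (0.749) and Dmac2 for Mdm2 (0.662). Between members the highest r was 0.488, for Trp53 and Bax, and that of Cdkn1a and Bax was 0.412, while Trp53 and Zmat3 had -0.421. These correlations describe libraries that share pools, batches and the marker shifts given above.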

How the data were processed

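Per the labels, cells were sorted into reaction buffer, whereas the study's methods name a lysis buffer and RNA extraction. cDNA was made with SMARTseq v4, and libraries with KAPA HyperPlus. Per the labels and the study's methods, the authors trimmed reads with Trimmomatic, aligned them with HISAT2 to GRCm38 and derived with StringTie the deposited expected counts, which are estimated counts per Ensembl gene given as whole numbers without scaling. Each pool combined mice. Symbols and positions came from GENCODE M21, and promoter sequences from RefSeq.

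Counts were scaled by TMM, filtered with filterByExpr and tested with edgeR 4.0.16 (quasi-likelihood, 8 groups plus batch, 23 libraries), limma 3.58.1 (voom, pool as block) and DESeq2 1.42.0 as an alternative, in R 4.3.3. Benjamini-Hochberg adjustment ran over 19597 genes, with a threshold of 0.05. The fits were also run on simulated counts that had no subset, batch or pool effects, so that run does not bear on these parts of the design. A marker gene is not reported here, and its list was used without it. Members and lists were chosen with earlier results of these data known. All members were named, and of each list at most 4 genes past the threshold per comparison, by size of the fitted change, except Pcna, named after its values were seen. For likeness, 1 gene per member was named. Log2 CPM used a prior count of 2. Limits of 3 counts cover counting error only. The labels name pools but no separate cultures, and within a group each library is another pool of mice. The edgeR and DESeq2 fits had no term for pool, so libraries of different subsets from the same mice counted as separate. Their p-values between batches and among subsets therefore do not measure the spread between pools alone. The same limit holds for the limma voom p-values averaged over subsets, as the block had an estimated correlation of only 0.00267.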

Additional observations from a re-analysis of the deposited data

Results flagged for a closer look

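Within the TLI groups of 4 libraries (DC1a, DC1b and DC3), each member's 4 CPM values were checked for a library far from the other 3 by the 95% critical value of Dixon's ratio. Of 30 groups checked, 5 had such a library. The critical value flags about 1 in 20 groups of independent, normally distributed values. The groups here share libraries and mix 2 batches, so the 5 cannot be set against that rate. Trp53 was far above the rest in 2 libraries of TLI pool 2, at 65.3 CPM in DC1b and 109.6 CPM in DC3. Trp53inp1 was low in the TLI DC1a library of pool 1, at 15.2 CPM. In TLI pool 3, the DC3 library was high for Zmat3, at 9.45 CPM, and had a value of 0 for Sesn2. No member passed the test for a difference of the TLI effect among subsets.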

How the results depend on the processing

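The main limits are 2 Untreated libraries per subset, all in batch 1, and low counts for Phlda3, Bbc3, Sesn2 and Zmat3. Numbers of genes past the threshold are given below in the order DC1a, DC1b, DC2 and DC3, against 2, 81, 12 and 5. DESeq2 gave 748, 1263, 892 and 730 of the 19597 genes. No filter on low counts gave 31, 167, 72 and 60, and 10 counts in every library gave 0, 200, 26 and 13. Without a batch term there were 0, 19, 7 and 2. TLI pools 3 and 4 alone gave 42, 544, 701 and 149, limma voom 40, 737, 163 and 113, and the libraries of the subset alone 223, 0, 0 and 0. Batch 1 alone gave 4, 7 and 2 in DC1b, DC2 and DC3. Leaving out 1 library gave 0 to 1, 3 to 100, 6 to 43 and 2 to 7. Members past the threshold became 1 in DC1a with DESeq2 and 1 in DC1b with DESeq2, limma voom or 10 counts in every library, and stayed at 0 when any library was left out. The cause of these shifts was not tested.

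Without a filter 96 genes differed in the TLI effect among subsets and 793 among Untreated subsets, against 7 and 464, and leaving out 1 pool gave 2 to 22 and 39 to 504. The average over subsets, 902 genes, became 478 with edgeR and no block, 480 in batch 1 and 113 with no batch term, and ran from 340 to 1825 genes and 0 to 2 members when a pool was left out. Between batches, 3413 genes became 5926 with DESeq2 (alternatives to this comparison were chosen after seeing the data) and 1624 to 2366, with 1 to 3 members, when a TLI pool was left out. No filter left 2 of the 3 members.

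Pool numbers mark different mice in the TLI and Untreated groups. With the pool number as a replicate block, 0, 90, 9 and 4 genes passed and no member. With the pool of mice as a replicate block, 5 genes differed in the TLI effect and 392 among Untreated subsets, again no member. Libraries of 1 pool correlated in their deviations by -0.16 to 0.07.

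Of 425 alternative log2 fold changes of members, 24 turned direction, none of them past the threshold. With TLI pools 3 and 4 alone, Trp53 was -0.77 in DC1a and -0.19 in DC2, Cdkn1a -0.66, -0.82 and -1.94 in DC1a, DC2 and DC3, and Bax -0.77 in DC1a. In batch 1 alone, Bax was -0.011, -0.10 and 0.11 in DC1a, DC2 and DC3, Sesn2 -0.13 in DC1a, Trp53 -0.068 in DC2 and Mdm2 -0.21 in DC3. Without a batch term, Bax was -0.28 in DC1a, Trp53 -0.21 and Cdkn1a -0.034 in DC2. Within the libraries of 1 subset, Sesn2 was -0.12 in DC1a, Trp53 -0.087 and Bax -0.12 in DC2, and Mdm2 -0.25 and Bax 0.069 in DC3. Leaving out 1 library moved Trp53 in DC1b over -0.59 to 0.71, Sesn2 in DC1a over -0.19 to 1.73 and Bax in DC3 over -0.50 to 0.54.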
